A study of Mus musculus with 14 samples.

Results

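Pcp4l1, Gucy2c, Zap70, Dct and Keg1 are 5 genes whose liver signal stood far apart between Snell dwarf and wild type mice although none has a known place in the growth hormone, prolactin or thyroid hormone axes. The genes were chosen by their dwarf to wild type differences in signal on these arrays, so their dwarf and wild type values are given below as a description without a test. Every probe set that the array annotation assigns to one of these symbols was used. This gave 5 of the 8252 genes and 9 of the 12488 probe sets of the array: 2 for Pcp4l1, 2 for Gucy2c, 3 for Zap70, 1 for Dct and 1 for Keg1. The array measured liver RNA of 14 mice, 1 per array, as MAS5 signals, a linear intensity per probe set. The groups were 4 wild type controls and 4 dwarfs of 6 months, and 3 wild type controls and 3 dwarfs of 22 months. The dwarfs carry the Snell mutation of Pit-1 (Pou1f1), a transcription factor needed to form the pituitary cells that secrete growth hormone, thyrotropin and prolactin, so the liver was compared between animals that lack all of these hormones together and animals that have them. The labels name no sex or strain and no further allele or treatment, and they number each animal separately.

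Each of the 5 genes is best known from another tissue. Pcp4l1 encodes a small brain protein with an IQ motif, related to the calmodulin-binding Purkinje cell protein Pcp4. Gucy2c encodes guanylate cyclase C, the receptor of intestinal epithelium that makes cyclic GMP when it binds guanylin (Guca2a), uroguanylin (Guca2b) or a bacterial heat-stable enterotoxin. Zap70 is the tyrosine kinase that docks on the phosphorylated zeta and CD3 chains of the T cell receptor after Lck has acted, and it works in natural killer cells too. Dct, dopachrome tautomerase, shapes melanin synthesis in melanocytes beside tyrosinase (Tyr) and Tyrp1. Keg1, kidney expressed gene 1, belongs to the glycine N-acyltransferase-like enzymes, which join glycine to acyl-CoA compounds.

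The genes lie on chromosomes 1 (Pcp4l1 and Zap70), 6 (Gucy2c), 14 (Dct) and 19 (Keg1), and none is on chromosome 16, which holds Pou1f1. The 250 bases before the start site are shown for the 3 genes that were lower in dwarfs and for Pcp4l1, which was higher, so that they can be read beside the values (RefSeq, GRCm38.p6, 5′ to 3′ on the gene's strand, where Zap70 has 3 listed starts and the first is shown). Capitals mark matches to TTCNNNGAA, the palindrome bound by STAT factors, AGGTCA, the half-site of nuclear receptors, or CATGTG, an E-box known from melanocyte genes, each searched on both strands.
Keg1, chr19:12695540-12695789, plus strand: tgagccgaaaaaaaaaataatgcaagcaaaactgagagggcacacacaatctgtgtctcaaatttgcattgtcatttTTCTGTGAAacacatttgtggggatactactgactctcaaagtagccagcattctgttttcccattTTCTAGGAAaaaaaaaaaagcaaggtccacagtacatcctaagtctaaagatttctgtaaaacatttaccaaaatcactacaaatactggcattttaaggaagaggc
Dct, chr14:118052247-118052496, minus strand: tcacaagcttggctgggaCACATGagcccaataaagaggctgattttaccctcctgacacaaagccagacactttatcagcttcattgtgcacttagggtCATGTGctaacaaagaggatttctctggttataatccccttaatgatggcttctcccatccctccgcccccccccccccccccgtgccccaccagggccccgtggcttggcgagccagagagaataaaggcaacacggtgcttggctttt
Zap70, chr1:36761548-36761797, plus strand: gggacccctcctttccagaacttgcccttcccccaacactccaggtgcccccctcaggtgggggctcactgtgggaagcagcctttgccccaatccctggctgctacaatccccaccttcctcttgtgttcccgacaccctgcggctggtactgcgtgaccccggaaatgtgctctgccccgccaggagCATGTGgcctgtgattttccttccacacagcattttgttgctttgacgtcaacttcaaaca
Pcp4l1, chr1:171196269-171196518, minus strand: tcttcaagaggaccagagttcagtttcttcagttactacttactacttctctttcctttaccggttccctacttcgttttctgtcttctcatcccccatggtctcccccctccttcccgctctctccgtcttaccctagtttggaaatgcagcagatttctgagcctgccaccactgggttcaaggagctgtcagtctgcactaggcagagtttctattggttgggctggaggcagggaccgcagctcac
The Keg1 window held TTCNNNGAA at 2 places, TTCTGTGAA from base 173 to 165 and TTCTAGGAA from base 107 to 99 before the start. Of 32851 windows of this length in the table, 7.02% held this motif and 0.317% held it 2 or more times. The Dct window held CATGTG 2 times, from base 232 to 227 on the opposite strand and from base 150 to 145, against 12.3% of windows that held it and 1.62% with 2 or more. The first Zap70 window held CATGTG 1 time, from base 61 to 56. AGGTCA, present in 14% of windows, was found only at the third Zap70 start, as TGACCT on the opposite strand, and the Pcp4l1 window matched none of the 3 motifs. Sequences were matched for 4 of the 5 genes, Gucy2c being the other. A match is a string of letters in this window and no measurement of binding.

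The tissue label was borne out by its markers: all 7 measured hepatocyte markers, Alb and Apoa1 among them, were above the median signal of 184.8 on every array. These markers also moved with genotype at 6 months, when 4 were higher in dwarfs (Alb 0.44 ± 0.13, limma adjusted p = 0.0338, Apoa1, Ahsg and Cps1) and Fgb was lower (-0.51 ± 0.16, adjusted p = 0.0419), and 0 passed at 22 months (1 with an unadjusted p under 0.05). A signal of 54.9, the 25th percentile of all values, was used as a floor, and probe sets above the median of 184.8 on at least 3 arrays were tested, 7227 in all. Of the tested probe sets, 13.3% passed for dwarf against wild type at 6 months (6.37% higher and 6.95% lower), 2.93% at 22 months (1.37% and 1.56%) and 18.7% for age averaged over the genotypes (8.91% and 9.76%) (limma, adjusted p under 0.05). After scaling of the arrays to one median, the share of higher calls moved from 47.8% to 18.2% at 6 months, as the median log2 difference of all probe sets moved from 0.10 to -0.10, and from 47.7% to 68.9% for age. At 6 months every dwarf array had a higher 25th percentile (56.5 to 74.1) than every wild type array (48.9 to 56.0), and the beta-actin 3′ to 5′ ratio, which is higher in more degraded RNA, was 2.29 to 2.69 against 1.16 to 2.38. At 22 months the percentile was 47.2 to 54.6 against 46.6 to 54.8, and the ratio 1.25 to 1.57 against 1.52 to 1.74. The Gapdh 3′ to 5′ ratio was 1.31 to 1.77 in dwarfs against 0.811 to 1.76 in wild types of 6 months. At 22 months it was 0.821 to 0.968 against 0.957 to 1.12. The 6-month wild type animal 88 resembled the 22-month arrays in its 18S ribosomal RNA control (587.6, against 60.8 to 217.4 on the other 6-month arrays and 339.8 to 4852.8 at 22 months). Without it the genotype differences at 6 months were 4.09 for Pcp4l1 97297_at, 3.04 for Gucy2c 103942_at, -3.66 for Zap70 93662_s_at, -3.55 for Dct and -3.21 for Keg1 on the log2 scale.

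**Figure D1:**
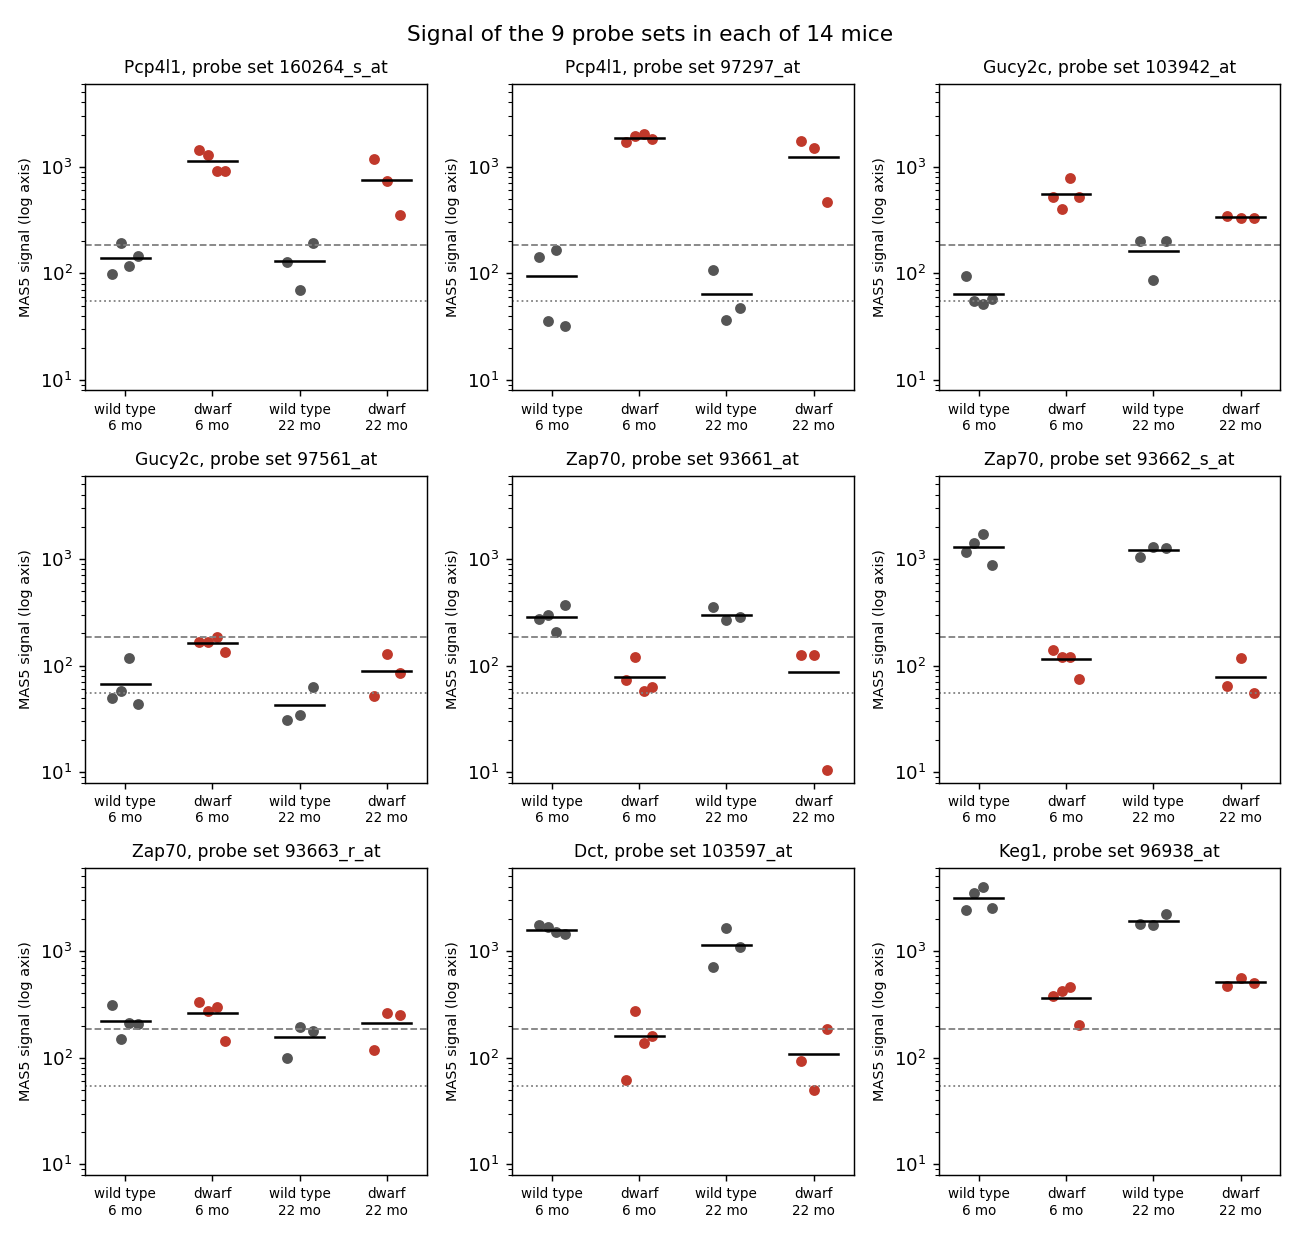
MAS5 signal (log axis) of the 9 probe sets in each mouse, with wild type in grey, dwarf in red and a bar at each group mean. The dotted line is the floor of 54.9 and the dashed line the median of 184.8; in 7 panels all 7 dwarf mice lie on one side of all 7 wild type mice, and Zap70 93663_r_at and Gucy2c 97561_at show overlap.

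Pcp4l1 was the member with the largest difference upward. Its probe set 97297_at read 1691, 1955, 2032 and 1801 in the dwarfs of 6 months (animals 83, 85, 87 and 89), and 143.6, 35.7, 166.4 and 32.1 in the wild types of that age (82, 84, 86 and 88). At 22 months it read 1750.3, 1507 and 465 in dwarfs (3, 4 and 8) and 109, 36.2 and 47.3 in wild types (1, 2 and 24). No dwarf value came near a wild type value at either age, and 4 of the 7 wild type arrays lay at or below the floor. The difference of mean log2 signal was 4.34 ± 0.43 (SE) at 6 months, a 20.2-fold higher signal, and 3.96 ± 0.49, or 15.5-fold, at 22 months. Those were the 5th and 7th largest increases among the 7227 probe sets tested.

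The other Pcp4l1 probe set, 160264_s_at, read 1425, 1298, 912 and 914 in dwarfs of 6 months and 98.0, 191, 118 and 146 in wild types. The 22-month values were 1173, 739 and 352 in dwarfs and 129, 69.6 and 193 in wild types. The suffix _s_at marks a set that may also detect related transcripts, and the genotypes were again fully apart. Its difference was 3.05 ± 0.36 (8.30-fold) at 6 months and 2.49 ± 0.42 (5.60-fold) at 22 months. In both sets the dwarf animal 8 was the lowest of the 7 dwarfs. Without that animal the 22-month differences were 4.56 and 2.96 on the log2 scale.

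Gucy2c also had a higher signal in dwarfs at both ages. Its probe set 103942_at read 514, 405, 784 and 524 in dwarfs of 6 months and 93.7, 54.6, 51.9 and 57.8 in wild types. In the older mice it read 343, 329 and 332 in dwarfs and 199.8, 86.4 and 201 in wild types. From highest to lowest the groups were dwarf of 6 months, dwarf of 22 months, wild type of 22 months and wild type of 6 months. The first 3 did not overlap, whereas animal 2 of the 22-month wild types (86.4) lay under animal 82 of the younger ones (93.7). The difference was 3.09 ± 0.30 (8.51-fold) at 6 months and 1.14 ± 0.35 (2.21-fold) at 22 months. It ranked 10th among increases at 6 months and 109th at 22 months.

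The second Gucy2c probe set, 97561_at, was dim. It exceeded 184.8 on 1 of 14 arrays and so failed the filter on low values. It read 168, 165, 186 and 134 in dwarfs and 49.8, 57.5, 117 and 44.1 in wild types of 6 months, without overlap, at 2.41-fold. At 22 months it read 51.5, 129 and 85.5 in dwarfs and 30.7, 34.5 and 62.9 in wild types, where the lowest dwarf lay below the highest wild type. The higher dwarf signal thus appeared in both sets, smaller in the dim one, whose wild type arrays lay at or below the floor in 4 of 7 cases.

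Keg1 was lower in dwarfs and was the only member above 184.8 on all 14 arrays. It read 379, 420.0, 461 and 205 in dwarfs of 6 months and 2443, 3504, 3977 and 2507 in wild types. The 22-month mice had 473, 564 and 506 in dwarfs and 1791, 1747 and 2224 in wild types. The 4 groups were fully separate and ran from wild type of 6 months through wild type of 22 months and dwarf of 22 months to dwarf of 6 months. The genotype difference was -3.12 ± 0.23 (8.68-fold lower) at 6 months and -1.90 ± 0.27 (3.72-fold lower) at 22 months. This is the gene with the 2 TTCNNNGAA matches shown above, and whether the matches bear on its signal was not tested.

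Dct had a clear wild type signal in liver and little in dwarfs. It read 1736, 1676, 1491 and 1454 in wild types of 6 months and 61.8, 273.5, 138 and 161 in dwarfs. At 22 months it read 706, 1628 and 1090.4 in wild types and 92.3, 49.4 and 187 in dwarfs. Each wild type value exceeded each dwarf value. The coefficient of variation was 55.2% in dwarfs against 8.66% in wild types at 6 months, and 64.1% against 40.6% at 22 months. The dwarf signals were low, with 1 of 7 at or below the floor, where background weighs on this measure. The difference was -3.51 ± 0.41 (11.4-fold lower) and -3.46 ± 0.47 (11-fold lower).

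Zap70 showed the strongest separation in its set 93662_s_at. Wild types read 1148, 1397, 1708 and 878 at 6 months and 1049, 1298 and 1261 at 22 months. Dwarfs read 140.2, 121, 121 and 74.2 at 6 months and 64.6, 117 and 55.0 at 22 months, all below the median of 184.8. The difference was -3.49 ± 0.27 (11.2-fold lower) at 6 months and -4.00 ± 0.31 (16.0-fold lower) at 22 months, the 19th and 7th largest decreases.

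The 3 Zap70 probe sets did not show the same picture. Set 93661_at, which has the plain suffix, read 272, 295, 205 and 369 in wild types and 74.0, 119, 58.2 and 63.3 in dwarfs of 6 months. The older groups read 355, 265 and 282 in wild types and 124, 124 and 10.6 in dwarfs. That was again without overlap, at -1.89 ± 0.34 (3.70-fold lower) and -1.66 ± 0.39 (3.15-fold lower). Set 93663_r_at read 315, 148, 214 and 208 in wild types and 336, 273, 301 and 143 in dwarfs of 6 months, and 99.0, 195 and 179 against 119, 260.1 and 252 at 22 months. Its groups overlapped at both ages, and its mean was higher in dwarfs by 0.23 ± 0.35 and 0.39 ± 0.41 on the log2 scale, unlike in the other 2 sets. Affymetrix used _r_at for sets designed with relaxed probe rules, and which transcript each set detects was not tested.

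Over all members, 8 of 9 probe sets were without overlap between the genotypes at 6 months and 7 of 9 at 22 months. At 6 months, 9.31% of the tested probe sets had all dwarfs above all wild types and 7.8% all below; at 22 months these were 10.3% and 11.5%. All 7 dwarfs lay above all 7 wild types for 3 member probe sets, against 1.16% of those tested, and below for 4, against 1.72%. As the genes were chosen for this difference, nothing is read from the comparison. The filter itself favoured it: Pcp4l1 97297_at exceeded 184.8 on 7 dwarf and 0 wild type arrays, and both lower Zap70 sets on 7 wild type and 0 dwarf arrays. The 25th percentile, given above, was also higher in every dwarf than in every wild type at 6 months. The beta-actin ratio had a higher mean in those dwarfs (2.51 against 1.87) but overlapped. The part of both in these differences was not tested.

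**Figure D2:**
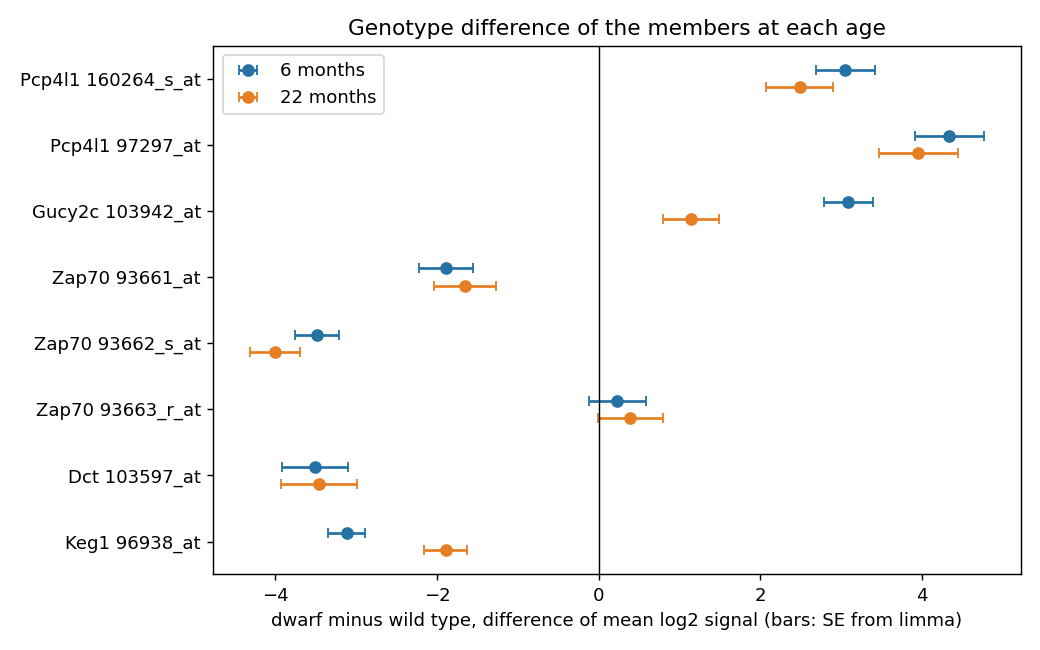
Difference of mean log2 signal between dwarf and wild type mice at 6 months (blue) and 22 months (orange) for the 8 probe sets that passed the filter, with bars for the standard error from limma. Gucy2c 103942_at (3.09 and 1.14) and Keg1 (-3.12 and -1.90) lie nearer to 0 at 22 months, and Zap70 93663_r_at lies near 0 at both ages.

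Genes that act with Zap70 gave no call, but few were tested. Over all tested probe sets, 13.3% passed at 6 months and 2.93% at 22 months. At such shares a short list holds few calls, so nothing is read from the call counts of this and the following lists. Of 18 measured genes of T cell receptor signalling 12 were tested, and none passed at either age (limma; 1 had an unadjusted p under 0.05 at 6 months and 0 at 22 months). Their median log2 difference was 0.28 at 6 months and 0.07 at 22 months, beside 0.10 and 0.01 over all tested probe sets. The adaptor Lat had 0.28 ± 0.16 and -0.09 ± 0.18, and Syk, the other kinase of the Zap70 family, had 0.38 ± 0.27 and -0.17 ± 0.31. Without dwarf animal 83, and also with the filter at the 75th percentile, 1 of the signalling genes passed as higher at 6 months. Of 14 T cell identity markers on the array, 3 were tested and none passed (1 with an unadjusted p under 0.05 at 6 months, 0 at 22 months): Cd4 had 0.51 ± 0.38 and 0.06 ± 0.44, Cd6 0.34 ± 0.33 and 0.44 ± 0.38, and Thy1 0.63 ± 0.29 and -0.38 ± 0.33.

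The defining T cell chains were close to the background. Cd8a and the homing receptor Ccr7 were at or below the floor on all 14 arrays, Cd3d on 13, Cd3g on 10 and Cd3e on 5. The zeta chain Cd247, on which Zap70 docks, had mean signals of 113 in wild types and 147 in dwarfs of 6 months, and 34.4 and 55.6 at 22 months. The summed signal of the 14 T cell markers was 758 to 1270 in wild types and 1205 to 1977 in dwarfs of 6 months, and 952 to 1152 and 859 to 1127 at 22 months. Most of these markers were dim, the 25th percentile of the dwarf arrays was itself higher at 6 months, and the part of T cell number in the Zap70 signal was not tested. In whole liver, fewer cells of a type and less RNA per cell cannot be told apart. Of 3 tested natural killer cell markers, 1 passed at 6 months, the activating receptor Klrk1 (1.39 ± 0.41, limma adjusted p = 0.0335), in the direction opposite to Zap70, and the list had no call under 10 of 25 alternatives, among them without wild type animals 82 or 88 or without dwarf animals 85, 87 or 89. At 22 months 0 passed (limma; 1 had an unadjusted p under 0.05).

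Melanocyte genes, the setting in which Dct is known, were mostly dim. Of 14 on the array 2 were tested, the melanocortin receptor Mc1r (-0.26 ± 0.31 at 6 months and -0.49 ± 0.35 at 22 months) and the transcription factor Sox10 (0.42 ± 0.21 and -0.20 ± 0.24), and 0 passed (limma; 0 with an unadjusted p under 0.05). Tyr, the first enzyme of melanin synthesis, lay at or below the floor on 11 of 14 arrays, and the endothelin receptor Ednrb and the melanosome motor Myo5a on all 14. The untested genes went both ways at 6 months. Tyrp1 had means of 151 in wild types and 66.8 in dwarfs, and Oca2 133 and 75.9, whereas Pmel had 83.7 and 166. At 22 months these means were 50.4 and 47.8, 32.1 and 35.0, and 79.9 and 98.4. The list's summed signal was 1295 to 1840.0 in wild types and 1658 to 1876 in dwarfs of 6 months, and 1065 to 1399 and 1029.9 to 1282 at 22 months. Another tautomerase, Ddt, had strong signals in every group (7680, 7700.0, 6830 and 7670 in wild types and dwarfs of 6 months and wild types and dwarfs of 22 months) and differences of -0.03 ± 0.17 and 0.19 ± 0.20. Mif, whose product has the same kind of activity, was at or below the floor on all 14 arrays.

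The partners of Gucy2c were dim. Its hormones guanylin and uroguanylin failed the filter: Guca2a was at or below the floor on 9 of 14 arrays and Guca2b on 4. Of 15 cyclic GMP signalling genes on the array 4 were tested and 0 passed at either age (limma; 1 with an unadjusted p under 0.05 at each age). The chloride channel Cftr, which guanylate cyclase C opens in intestine through the kinase Prkg2, had 0.31 ± 0.28 and -0.11 ± 0.32, and the phosphodiesterase Pde9a had -1.04 ± 0.34 and -0.30 ± 0.39. Prkg2 itself was at or below the floor on all 14 arrays. The list gained 1 lower call at 6 months with quantile normalization, with median scaling, without an intensity trend and without dwarf animal 83.

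Markers of intestinal epithelium, the tissue in which Gucy2c is best known, did not move in one direction. Of 10 on the array 4 were tested, with 1 lower at each age, and 0 higher. The fatty acid binding protein Fabp2 was lower in dwarfs at 6 months (132 against 1940.0, log2 difference -3.93 ± 0.31, limma adjusted p = 4.58e-07), and the trefoil peptide Tff3 at 22 months (-2.75 ± 0.59, adjusted p = 0.0155). At the other age neither passed: Tff3 had 1.07 ± 0.51 at 6 months (limma adjusted p = 0.181) and Fabp2 -0.81 ± 0.36 at 22 months (adjusted p = 0.339). The lectin Lgals4 had 0.40 ± 0.24 and the keratin Krt20 0.52 ± 0.36 at 6 months, and the median of the 4 was 0.46 at 6 months and -0.41 at 22 months, beside 0.10 and 0.01 over all tested probe sets. Of the untested markers, the intestinal regulator Cdx2 had means of 91.8 in dwarfs and 43.0 in wild types of 6 months, and lactase (Lct) 125 and 82.4. Cdx1 was at or below the floor on 13 of 14 arrays, and the brush border protein Vil1 on 12. The summed signal of the list was 2448 to 3091 in wild types and 1266 to 1643 in dwarfs of 6 months, and 4116 to 9309 and 1701 to 3261 at 22 months. These sums were carried by single genes, Fabp2 at 6 months and Tff3 at 22 months (mean 755 in dwarfs against 4430.0 in wild types), and the part of intestinal cells in the Gucy2c signal was not tested.

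Few genes near Pcp4l1 in role could be measured. Pcp4, the relative of Pcp4l1, was at or below the floor on 13 of 14 arrays. Of 13 calmodulin genes on the array 5 were tested, and 1 passed at 6 months and 0 at 22 months (limma; 1 with an unadjusted p under 0.05). The one that passed was Pcp2, a G protein modulator of Purkinje cells that is not known to bind calmodulin (1.18 ± 0.27, adjusted p = 0.00885, an _r_at set). Of 9 neuron markers on the array 3 were tested, and 2 were higher at 6 months, Pcp2 again and the calcium buffer Pvalb (0.60 ± 0.17, adjusted p = 0.0288), while 0 passed at 22 months (limma; 0 with an unadjusted p under 0.05). Snap25 and Nefm were at or below the floor on all 14 arrays.

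Of 11 genes of glycine conjugation and acyl-CoA synthesis on the array, 10 were tested. At 6 months 2 were lower in dwarfs, the glycine-forming Shmt1 (-0.63 ± 0.14, limma adjusted p = 0.00755) and the acyl-CoA synthetase Acsl5 (-0.74 ± 0.19, adjusted p = 0.0177). At 22 months Gnmt, which methylates glycine, was higher (0.63 ± 0.15, limma adjusted p = 0.0313) and Acsl4 lower (-1.01 ± 0.26, adjusted p = 0.0454). The list kept 2 calls at this age under only 9 of 25 alternatives. It had no call under 6, among them without wild type animals 1 or 24 or dwarf animals 3 or 4. The medians of the list were -0.08 and 0.02. Baat, which conjugates bile acids with glycine or taurine, had -0.16 ± 0.19 and 0.00 ± 0.22. Kidney, for which Keg1 is named, had 1 tested marker of 8 on the array, Aqp2 (0.13 ± 0.42 and -0.27 ± 0.49, not passed, 0 with an unadjusted p under 0.05), and Umod was at or below the floor on all 14 arrays.

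**Figure D3:**
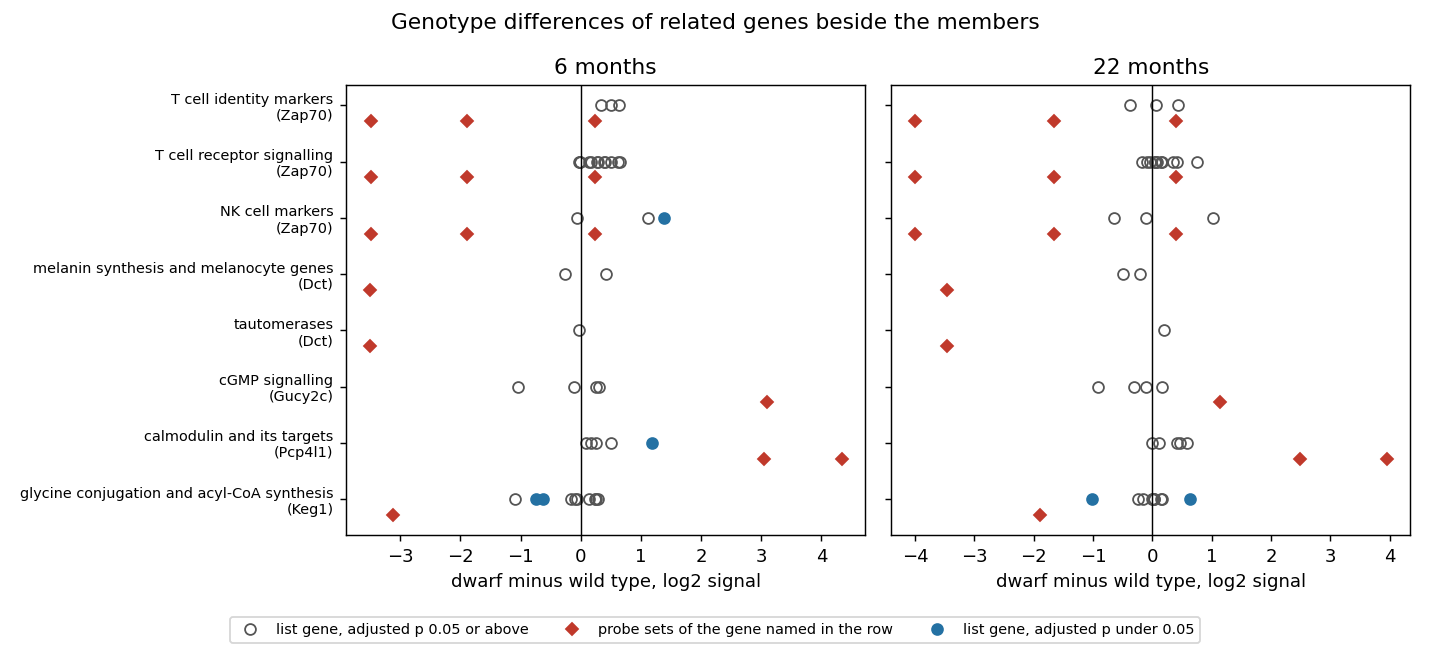
Difference of log2 signal between dwarf and wild type mice at 6 and 22 months for the tested genes of 8 lists (circles, filled where the limma adjusted p was under 0.05) and, just under each list, the probe sets of the gene named with it (red diamonds). The genes of these 8 lists lie between -1.09 and 1.39; the members were chosen for a large difference, and the intestinal markers, with Fabp2 at -3.93 and Tff3 at -2.75, are not drawn.

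Age was the comparison that had not served to choose the genes. Each age has as many dwarfs as wild types. The mean of the 22 minus 6 month differences of both genotypes therefore does not covary with the genotype differences where both genotypes spread alike, and it was tested. The spreads were not alike in every set. At 6 months the SD of log2 signal was 0.867 in wild types and 0.119 in dwarfs for Pcp4l1 97297_at. For Dct it was 0.125 and 0.888. In such sets the age test is not free of the differences that chose the genes. None of the 8 member probe sets passed (limma, adjusted p from 0.199 to 0.838; 0 with an unadjusted p under 0.05; background 18.7%). Nothing is read from that count, since 6 of the 8 sets were above 184.8 on at least 3 arrays in 1 genotype only. In those sets the averaged value joins a genotype with clear signal to one with low signal. For Pcp4l1 97297_at 4 of the 7 wild type values were at or below the floor of 54.9. The averaged differences ran from -0.61 for Pcp4l1 97297_at to 0.28 for Gucy2c 103942_at. Their 95% intervals reached from -1.30 to 0.08 for Pcp4l1 97297_at, from -1.19 to 0.13 for Dct, from -0.75 to 0.12 for Zap70 93662_s_at, from -0.21 to 0.77 for Gucy2c 103942_at and from -0.43 to 0.31 for Keg1, so age differences of these sizes are not excluded. The 22-month arrays all had an 18S control signal of at least 339.8, and with it as a covariate 11 probe sets in place of 1349 passed for age; of the members, again none did.

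The average of 0.28 for Gucy2c and -0.06 for Keg1 held opposite differences in the 2 genotypes, which are given as values since they share arrays with the genotype comparison. Gucy2c 103942_at was 1.25 ± 0.33 (2.38-fold) higher at 22 than at 6 months in wild types and 1.62-fold lower in dwarfs (-0.69 ± 0.33), where the age groups did not overlap. In its dim second set both genotypes had lower means with age (-0.22 in wild types and -0.94 in dwarfs). Keg1 was 1.59-fold lower with age in wild types (-0.67 ± 0.25) and 1.47-fold higher in dwarfs (0.55 ± 0.25), in each case without overlap between the ages. Dct had like differences in both genotypes, -0.56 ± 0.44 in wild types and -0.51 ± 0.44 in dwarfs.

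**Figure D4:**
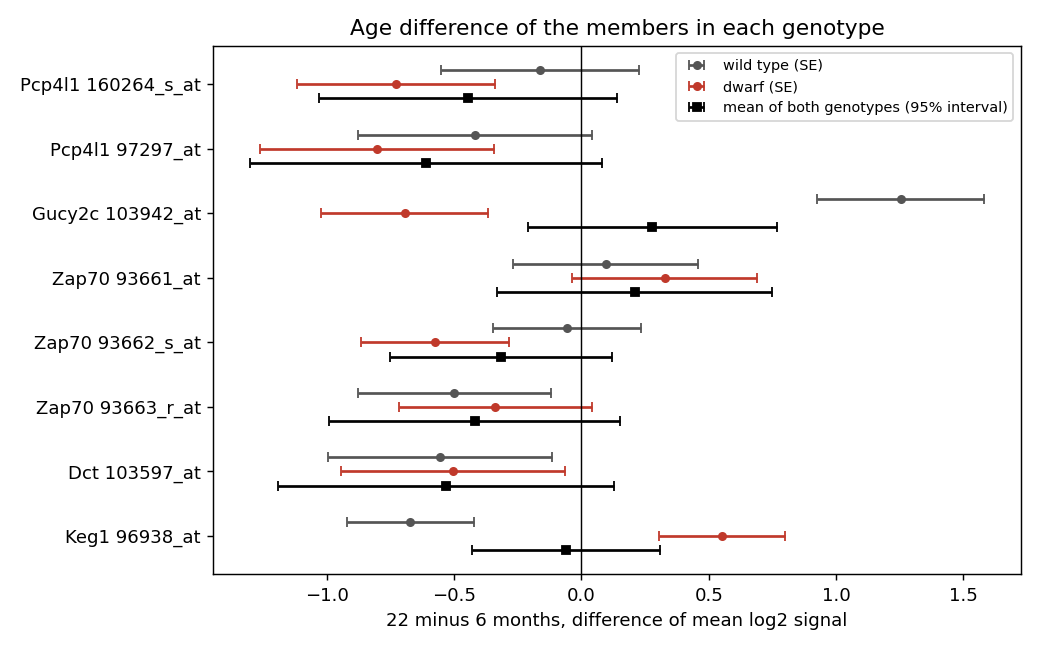
Difference of mean log2 signal between 22 and 6 months in wild type mice (grey) and dwarf mice (red), with standard errors, and the mean of both genotypes (black) with its 95% interval. Every black interval includes 0, and Gucy2c 103942_at and Keg1 have grey and red points on opposite sides of 0.

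The genes whose profiles over the 14 arrays were most like those of the members were found by the root mean square difference of mean-centred log2 signals. For Zap70 93662_s_at they were the growth factor receptor Egfr (0.56), the major urinary protein Mup5 (0.62) and Keg1 (0.75), against a median of 1.95 over all genes. For Dct they were Mup5 (0.76), Egfr (0.80) and Zap70 (0.81), against a median of 1.91. Egfr and Mup5 were thus near both genes. Keg1 was closest to the complement component C9 (0.39), the cytochrome P450 Cyp2f2 (0.48) and the type 1 deiodinase Dio1 (0.54), with a median of 1.44. The plain Zap70 set 93661_at had Col15a1 (0.29), Nat8f1 (0.40) and Gjb2 (0.46) nearest, at a median of 1.07. The flat set 93663_r_at had Ankrd11 (0.33), F2rl2 (0.35) and Emid1 (0.36), at a median of 0.63.

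Among the higher members, Pcp4l1 97297_at was closest to the fatty acid hydroxylase Cyp4a14 (0.86), the oxidase Hao2 (0.96) and lipoprotein lipase Lpl (1.06), against a median of 2.20. Pcp4l1 160264_s_at was closest to Pla2g12a (0.59), Plin4 (0.74) and Usp18 (0.75), and Gucy2c 103942_at to Pla2g12a (0.57), Cln6 (0.58) and Cd63 (0.68), with medians of 1.53 and 1.32. The phospholipase Pla2g12a, measured by an _f_at set that may cross-detect a gene family, was thus the nearest gene to both. All these neighbours in profile share the 14 arrays, and the likeness includes the genotype difference that chose the members.

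On the chromosome, the 3 nearest tested genes on either side of each member gave 30 neighbours, of which 6 passed for genotype at 6 months (background 13.3%) and 3 at 22 months (background 2.93%). Next to Pcp4l1 lies Nr1i3, which encodes the xenobiotic receptor CAR and was higher in dwarfs at both ages (1.12, limma adjusted p = 0.00393, and 1.66, adjusted p = 0.00118), as was Apoa2 beyond it at 6 months (0.52, adjusted p = 0.0463), while Sdhc on the other side had -0.12 and 0.24. Next to Gucy2c, Plbd1 was lower at both ages (-1.61, adjusted p = 0.000148, and -1.15, adjusted p = 0.0196), opposite to Gucy2c, while Emp1, 2 places away, was higher at 6 months (1.15, adjusted p = 0.0441). The neighbours of Zap70 had limma adjusted p of 0.0502 or more at both ages. Of the neighbours of Dct, Lmo7 was higher (0.92, adjusted p = 0.0283) and Dnajc3 lower (-0.86, adjusted p = 0.0407) at 6 months. Beside Keg1, the macrophage gene Mpeg1 was lower at 22 months (-1.07, adjusted p = 0.0254). The neighbours were looked up after the member values were known.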

How the data were processed

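Liver RNA of 14 mice was labelled with biotin and hybridised to Affymetrix arrays of 12488 probe sets. Per the submitters' processing notes, the authors made the signal intensity values with MAS5, and the deposited values are linear, with a 2% trimmed mean of 500.357 to 500.437 per array. They were used as deposited, set to a floor of 54.9 and taken to log2. The number of arrays limits the precision. No detection calls were used. The array annotation named 1 gene for 10855 probe sets, several for 396 and none for 1237. After removal of 66 control sets, 7227 probe sets were fitted with 1 mean per group in limma 3.58.1 (R 4.3.3, eBayes with intensity trend, Benjamini-Hochberg adjustment within a contrast over all of them). Folds are 2 to the power of the difference in mean log2 signal, and the separate animals are the replicates. A gene with several tested sets was represented in lists by the one with the highest mean.

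The members, lists and tests were chosen with earlier results of these data known. Named genes were the members, up to 4 called genes per list and contrast, the 3 genes most like each tested member set, and fixed T cell, guanylin, tautomerase, Pcp4 and Glyat genes, of which Glyat was not matched. B cell markers (1 of 3 higher at 6 months, Cd79b) and pancreatic acinar markers (1 of 6 lower at each age, Cela1) were also measured. The fit was tested on simulated data: for age it recovered 29.9%, 88.1% and 97.0% of probe sets changed 1.5-, 2- and 4-fold among 7227, with 6 false calls. The simulated arrays had independent normal noise and no genotype difference. These shares therefore do not describe member sets that lie near the floor in 1 genotype. Alternatives were other scalings, floors, a pseudocount, filters, variance models, array weights, fewer groups, an 18S covariate and leaving out each array. Motifs were searched with Python 3.11.15.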

Additional observations from a re-analysis of the deposited data

Results flagged for a closer look

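Gucy2c 103942_at had 1 animal apart from the rest of its group: in 6-month wild types animal 82 read 93.7, with a gap to the next value of 0.859 of the group's range, above Dixon's critical value of 0.829. It was the only such value in 18 groups of 4, and chance gives about 1 in 20. Without animal 82 the 6-month difference was 3.28 in place of 3.09.

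For the same probe set each 22-month wild type lay above the mean of the younger wild types and each 22-month dwarf below that of the younger dwarfs, which made the age difference in dwarfs 1.95 lower on the log2 scale than that in wild types (-1.95). For Keg1 96938_at the directions were the other way round, with the age difference 1.22 higher in dwarfs. Neither difference was tested, because both rest on the genotype differences that chose the genes.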

How the results depend on the processing

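Under 25 alternatives, counted per comparison, the genotype difference of every tested member set kept its direction wherever the set was fitted. The filter at the 75th percentile removed Gucy2c 103942_at, Zap70 93661_at and Zap70 93663_r_at, which therefore had 24 alternatives. Many of the recomputed values could not change. Other filters, variance models without array weights, fewer groups and leaving out an array of the other age keep each difference as it was. Counted with these, 388 of 394 recomputed values moved by less than 1 SD. The others came from the treatment of low signals: with a floor of 100 Gucy2c 103942_at at 6 months had 2.44, Zap70 93661_at at 6 months -1.42 and Zap70 93662_s_at at 22 months -3.51, with a pseudocount of 32 Gucy2c had 2.59 and Zap70 93662_s_at -3.51, and with a floor of 20 Zap70 93661_at had -2.14 at 22 months. The dwarf signal of Zap70 and the wild type signal of Pcp4l1 and Gucy2c lie near the floor, so those folds depend on it. No member passed for age in any of 197 recomputed tests (lowest adjusted p 0.064, for Dct), and the sign of the age difference changed under at least 1 alternative for Pcp4l1 97297_at (0.32 with the 18S covariate), Gucy2c 103942_at, Zap70 93661_at and Keg1. Over all probe sets, 962 calls at 6 months became 630 in a fit of the compared groups alone, 212 at 22 months became 442 with array weights, and 1349 for age became 11 with the 18S covariate, and the cause was not tested. Leaving out 1 array gave 711 to 1098 calls at 6 months, 127 to 241 at 22 months (127 without dwarf animal 3) and 909 to 1713 for age. Array weights, a variance alternative, also gave 1 higher calmodulin list gene at 22 months. No paired analysis was possible because the groups share no replicate numbers.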
